A study of Drosophila melanogaster with 12 samples.

Results

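Synaptotagmins, rabphilin and the proteins they work with bring a secretory vesicle to its target membrane and fuse it there. The set described here holds 10 genes of that machinery, namely the synaptotagmins Syt1, Syt4, Syt7, Sytalpha and Sytbeta, the rabphilin gene Rph, the SNARE genes nSyb, Syx1A and Snap25, and the proton pump subunit gene Vha100-1. They were followed in RNA from testes of Drosophila melanogaster males aged 3 days, on Affymetrix Drosophila Genome 2.0 arrays. Every probe set whose only gene symbol was one of these genes was taken, which gave 8 probe sets of the 18769 tested, for 7 of the 10 genes and of 11953 named genes. Sytbeta had a pair of probe sets and the other 6 genes had 1 each. Syt1, Syt4 and Syx1A had no probe set of that symbol alone in the annotation used and were not analysed here.

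The study compared testes with and without Suppressor of Hairy-wing, the zinc finger DNA-binding protein that su(Hw) encodes. The 2/v males carried y[1], w[67c23], ct[6] and f[1] with the su(Hw) alleles 2 and v, and the A2663/2 males carried y[1], w[67c23] and the insertion P{EPgy2}Amt[EY02782] with the su(Hw) alleles A2663 and 2. The labels call both su(Hw) null, and both share allele 2. The BL15598 males carried y[1], w[67c23] and the same Amt insertion, so that by their labels they match A2663/2 apart from su(Hw), and Canton S is a wild-type strain with none of these markers named. The labels call both wild type for su(Hw). Each genotype had 3 arrays, labelled biological replicates, and each RNA came from about 100 pooled pairs of testes.

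Synaptotagmins have paired C2 domains that bind membranes. Some members of the family are vesicle proteins of nerve terminals, and some sense calcium through these domains. Rabphilin is a C2-domain protein that binds Rab proteins on vesicles. The v-SNARE neuronal synaptobrevin, encoded by nSyb, zips up with the t-SNAREs syntaxin 1A and SNAP-25 to drive fusion. The vacuolar ATPase acidifies vesicles, and Vha100-1 encodes a form of its membrane-embedded a subunit that is known from fly neurons. These genes are best known from neurons, and a testis also holds germ cells, cyst cells and a muscle sheath.

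Signals are the deposited intensities on a linear scale. Changes are log2 differences from limma on all 12 arrays, with p-values adjusted by Benjamini-Hochberg over all 18769 probe sets, and a probe set is called at an adjusted p under 0.05. Folds are ratios of geometric means. The control level, 20.4, is the median signal of the array's control probe sets, and a level near or below it is not told from background. In pooled tissue, fewer cells of a type and less RNA per cell cannot be told apart. The probe set of su(Hw) itself followed the labels, at 42.6 ± 25.6 in 2/v and 70.1 ± 17.3 in A2663/2, against 1392 ± 161 in BL15598 and 984 ± 191 in Canton S (SD, n = 3 each). Array medians lay between 194 and 246, and an array's mean correlation with its own genotype was 0.952 to 0.964, against 0.935 to 0.95 with the others.

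Both nulls together, against both wild types, had 4 member probe sets higher, 1 lower and 3 not called. Rph, nSyb, Sytalpha and 1 of the Sytbeta probe sets rose and Vha100-1 fell. The other Sytbeta probe set, Syt7 and Snap25 did not pass. For comparison, 13.5% of all probe sets were called, 8.87% higher and 4.6% lower. The median log2 change was 0.86 over the 8 probe sets, against 0.05 over all. In 4 of the 8, all 6 null values lay outside the range of the 6 wild-type values, as they did in 6.41% of all probe sets. Because the members were chosen with earlier results of these data known, these comparisons do not test the set. The median also includes the dim Syt7 and Snap25, the latter below the control level, and counts Sytbeta by both of its probe sets. The scaling of the arrays matters for the sign of small changes. With each array centred on its median, the median change of all probe sets moved to -0.12 and the share of calls that were higher fell to 37.1%, against 65.8% as reported and 52.1% after quantile normalization. Under both of those scalings Rph, nSyb, Sytalpha, Vha100-1 and the called Sytbeta probe set kept their directions.

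**Figure D1:**
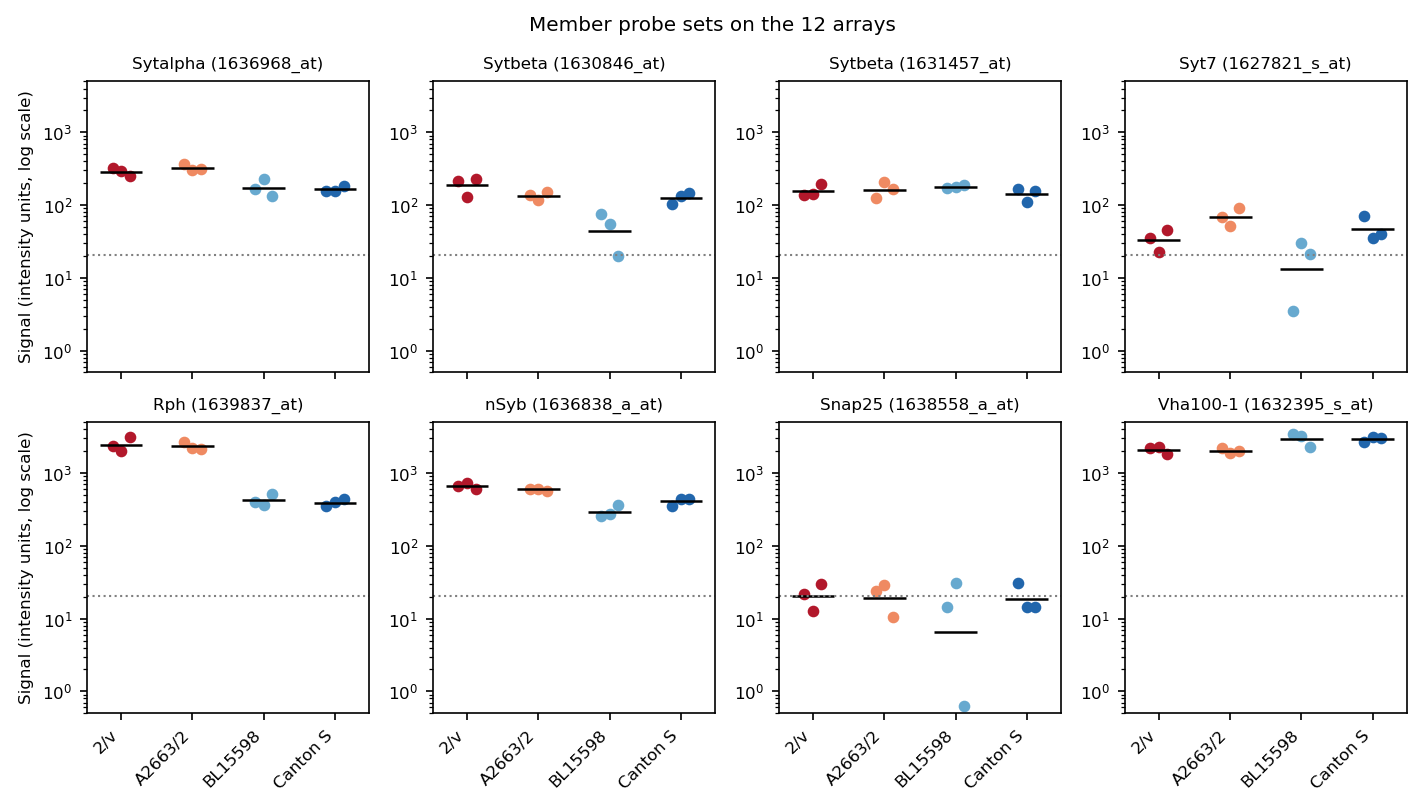
Signal of each member probe set on the 12 arrays (intensity units, log scale), with 1 point per array, black bars at the geometric mean of each genotype (n = 3) and a dotted line at the control level of 20.4. Rph separates the nulls (2004 to 3149) from the wild types (349 to 517) without overlap, Vha100-1 is lower in the nulls, and Snap25 lies around the dotted line in all 4 genotypes.

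Rph, the rabphilin gene, had the greatest difference of the set. Its signals were 2373, 2004 and 3149 in 2/v and 2681, 2247 and 2134 in A2663/2, against 400, 364 and 517 in BL15598 and 349, 396 and 435 in Canton S. Both nulls stood high and both wild types low, and the lowest null value lay well above the highest wild-type value. Rph was 5.91-fold higher in the nulls (95% interval 4.75 to 7.34), a log2 change of 2.56 with an SE of 0.14 (limma adjusted p = 5.32e-06). By p-value it ranked 38 among all probe sets, and by size 115 among the 1664 called higher. Its log2 change was 2.47 in A2663/2 against BL15598, the pair that differs by su(Hw) alone in the labels, and 2.65 in 2/v against Canton S (limma adjusted p = 7.94e-05 and 3.98e-05). The difference between these null effects was 0.18 (95% interval -0.45 to 0.81, limma adjusted p = 0.828). Each null exceeded each wild type, so that Rph was called in all 4 such pairs, and it stayed so under each of the 20 alternative settings.

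nSyb, the gene of the neuronal v-SNARE, was higher in both nulls by a smaller amount. Its signals were 668, 737 and 602 in 2/v and 610, 609 and 576 in A2663/2, against 259, 270 and 370 in BL15598 and 349, 447 and 446 in Canton S. The nulls and the wild types did not overlap, and BL15598 tended to be the lower wild type, with its highest array above the lowest Canton S array. The fold was 1.81 (95% interval 1.51 to 2.16), a log2 change of 0.86 with an SE of 0.115 (limma adjusted p = 0.001). It was greater against BL15598 than against Canton S, with log2 changes of 1.02 in A2663/2 and 1.17 in 2/v against BL15598, and of 0.54 in A2663/2 and 0.70 in 2/v against Canton S. The 1 pair of these 4 that was not called was A2663/2 against Canton S (limma adjusted p = 0.0746). BL15598 was 0.48 lower than Canton S on the log2 scale (limma adjusted p = 0.113). That difference is called under 2 of 20 alternatives, array quality weights and leaving out BL15598 replicate 3.

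Sytalpha, a synaptotagmin gene, rose by the same fold as nSyb. Its signals were 320, 290 and 248 in 2/v and 364, 304 and 309 in A2663/2, against 166, 230 and 132 in BL15598 and 157, 154 and 183 in Canton S. The nulls and the wild types did not overlap, although the lowest 2/v array, at 248, came close to the highest BL15598 array, at 230. The fold was 1.81 (95% interval 1.46 to 2.25), a log2 change of 0.86 with an SE of 0.14 (limma adjusted p = 0.00318). Sytalpha was called in all 4 pairs, with log2 changes of 0.92 in A2663/2 against BL15598, 0.79 in 2/v against Canton S, 0.98 in A2663/2 against Canton S and 0.73 in 2/v against BL15598. The adjusted p of the last was 0.0456 by limma, and the call in all 4 pairs was kept in 4 of 20 alternatives, whereas the call over both nulls was kept in all 20.

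The probe sets of Sytbeta, another synaptotagmin gene, disagreed. Probe set 1630846_at read 217, 128 and 231 in 2/v and 139, 116 and 152 in A2663/2, against 75.8, 55.3 and 19.8 in BL15598 and 102, 134 and 145 in Canton S. It was low in BL15598 alone, and A2663/2 and Canton S overlapped. Its log2 change over both nulls was 1.10 with an SE of 0.314 (limma adjusted p = 0.0482), and this call was lost in 13 of 20 alternatives. By pairs it was called for 2/v against BL15598 only, at 2.09 (limma adjusted p = 0.0156), and BL15598 was lower than Canton S by 1.53 on the log2 scale without passing (limma adjusted p = 0.0644). Probe set 1631457_at read between 112 and 211 on all 12 arrays, with means of 159 ± 32.9 in 2/v and 167 ± 43.5 in A2663/2, against 180 ± 7.55 in BL15598 and 144 ± 27.7 in Canton S (SD, n = 3 each). Its log2 change was 0.00 (95% interval -0.36 to 0.36, limma adjusted p = 0.995), and its sign turned in 8 of 20 alternatives.

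Syt7, a synaptotagmin gene read by a probe set that may match more than 1 gene's transcripts, was dim. Its signals were 35.4, 22.6 and 45.2 in 2/v and 68.9, 50.8 and 89.8 in A2663/2, against 3.45, 30.6 and 21.5 in BL15598 and 71.3, 35.5 and 40.1 in Canton S. A2663/2 stood high and BL15598 low, with 2/v and Canton S between them. The geometric mean of BL15598, 13.1, lay below the control level, so that A2663/2, at 68.0, was at least 3.33-fold brighter, without passing (limma adjusted p = 0.0892). In 2/v against Canton S the log2 change was -0.50 (limma adjusted p = 0.767). The difference between these effects did not pass (limma adjusted p = 0.184), and no size is given for it because of the BL15598 level.

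Snap25, the gene of a t-SNARE, read between 0.63 and 31.3 and crossed the control level in every genotype. Its means were 21.4 ± 8.71 in 2/v and 21.3 ± 9.81 in A2663/2, against 15.2 ± 14.9 in BL15598 and 20.0 ± 9.74 in Canton S (SD, n = 3 each). No fold is given because both groups lay below the control level as geometric means.

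Vha100-1, which encodes an a subunit of the vacuolar ATPase, was read by a probe set that may match transcripts of more than 1 gene, and that probe set fell. Its signals were 2204, 2272 and 1837 in 2/v and 2207, 1899 and 2017 in A2663/2, against 3457, 3238 and 2295 in BL15598 and 2695, 3109 and 3037 in Canton S. No null array reached the lowest wild-type array, though 2/v replicate 2, at 2272, came close to BL15598 replicate 3, at 2295. The nulls were 1.43-fold lower, a log2 change of -0.51 with an SE of 0.118 (limma adjusted p = 0.0182). The pairs gave -0.49 to -0.53, none of them called, with limma adjusted p-values of 0.0875 to 0.106. In 4 of 20 alternatives all 4 pairs were called. These were median centring, a trended robust prior, array weights and leaving out BL15598 replicate 3.

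Called members in single pairs were 3 in A2663/2 against BL15598, where 6.83% of all probe sets were called, and 3 in 2/v against Canton S, where 10.4% were. They were 2 in A2663/2 against Canton S and 4 in 2/v against BL15598, beside 9.21% and 10.6% of all. Rph and Sytalpha were the 2 called higher in all 4 pairs, as 1.52% of all probe sets were. Between the nulls, which share allele 2, 0 of 8 members were called by limma in 2/v against A2663/2, with 0 at an unadjusted p under 0.05. Since 0.927% of all probe sets were called there, this count says little about the members. The dim Syt7 did not overlap between the nulls, at 22.6 to 45.2 in 2/v and 50.8 to 89.8 in A2663/2. The wild types differed in 0 of 8 members by limma, with 3 at an unadjusted p under 0.05, where 9.58% of all were called. Those 3 are nSyb, Syt7 and Sytbeta 1630846_at, each lower in BL15598. The difference of the null effects was called in 0 of 8 members by limma, with 1, Syt7, at an unadjusted p under 0.05, beside 4.07% of all.

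**Figure D2:**
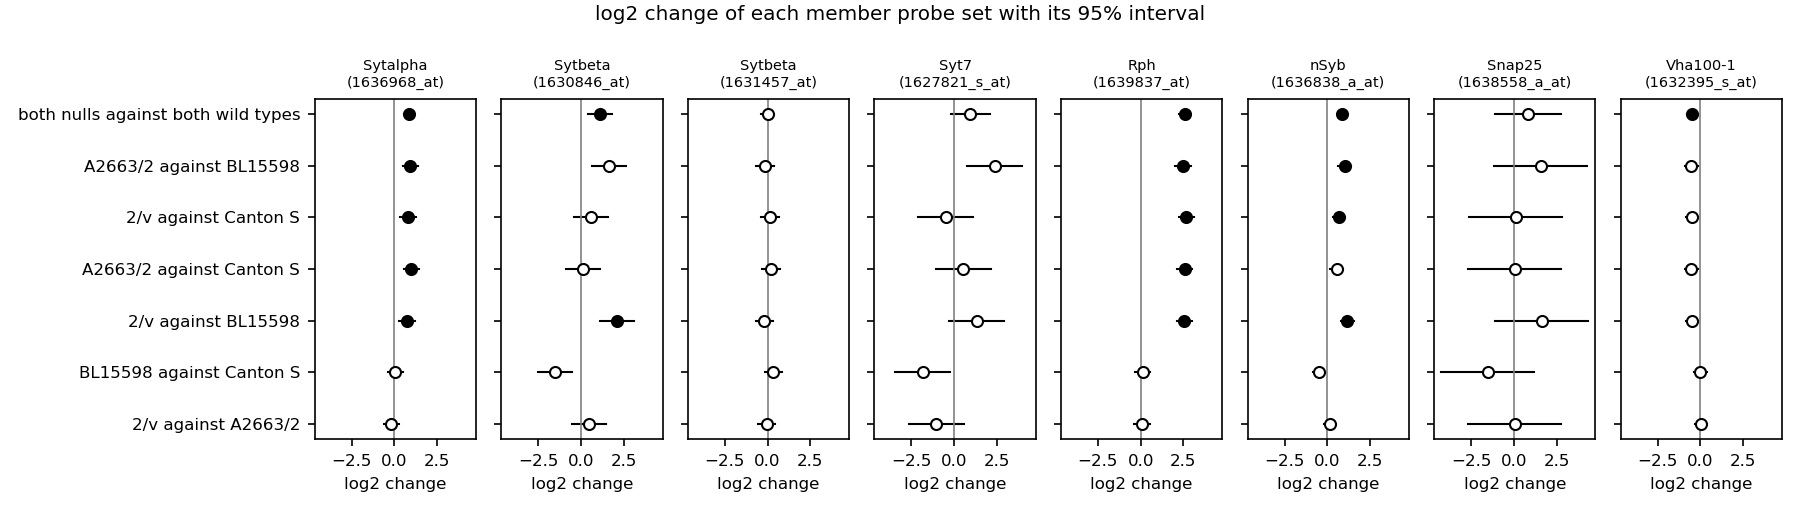
log2 change of each member probe set (1 panel each) with its 95% interval in 7 comparisons, each written as the first genotype against the second, with filled points called at an adjusted p under 0.05. For Snap25 and for Syt7 in BL15598 the levels lie below the control level, and their points give no size. Rph lies between 2.47 and 2.65 in the 4 pairs that set a null against a wild type, and 0 points are filled in the bottom rows, which compare the wild types and the nulls with each other.

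The other genes of the fusion machinery were read from lists of pathway genes, to be set beside the 13.5% of all probe sets called, 8.87% higher and 4.6% lower. Of 8 other synaptotagmin-family and C2-domain genes, 0 were called by limma, with 0 at an unadjusted p under 0.05, and their median log2 change was 0.14. They include Esyt2, an extended synaptotagmin, at means of 4302 in 2/v and 4067 in A2663/2, against 3823 in BL15598 and 3650 in Canton S. Of 18 regulators of SNARE assembly and release, 3 rose, 0 fell and 15 were not called (median 0.18). Frq1, which encodes a frequenin calcium sensor, rose 2.44-fold to 450 in 2/v and 375 in A2663/2, against 197 in BL15598 and 143 in Canton S, and was called in all 4 pairs (log2 change 1.29, limma adjusted p = 0.000113). gammaSnap1, a soluble NSF attachment protein gene, rose 1.28-fold (limma adjusted p = 0.0197), a call lost with median centring. cpx, the complexin gene, rose 1.68-fold at an adjusted p of 0.0499 by limma, a call lost in 13 of 20 alternatives, and its other probe set changed by 2.25 on the log2 scale without passing (limma adjusted p = 0.0668).

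Of 11 other SNARE genes, 2 rose, 1 fell and 8 were not called (median 0.27). Sec20, a SNARE of traffic between Golgi and endoplasmic reticulum, rose 1.56-fold to 589 in 2/v and 539 in A2663/2, against 319 in BL15598 and 401 in Canton S (limma adjusted p = 0.00834). Ykt6, another SNARE of the early secretory pathway, averaged 740 in 2/v, 620 in A2663/2 and 673 in BL15598 and 242 in Canton S, so that its call over both nulls (1.70-fold, limma adjusted p = 0.0167) goes with a low Canton S. Syb, the broadly expressed relative of nSyb, had 3 probe sets that did not run together. The brightest fell by 0.30 on the log2 scale (limma adjusted p = 0.0192), another changed by -0.20 without passing, and the third rose by 0.45 (limma adjusted p = 0.04).

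Of 14 genes of vesicle cargo and recycling, 0 rose, 2 fell and 12 were not called (median 0.06). Syngr, the synaptogyrin gene, fell 1.54-fold to 239 in 2/v and 207 in A2663/2, against 350 in BL15598 and 337 in Canton S (limma adjusted p = 0.00311). EndoA, the endophilin gene, fell 1.72-fold (limma adjusted p = 0.0257), a call lost in 7 of 20 alternatives, all of which leave out 1 array. Of 30 other V-ATPase genes, 1 rose, 1 fell and 28 were not called (median 0.03). The other a-subunit genes did not pass, with log2 changes of 0.18 for Vha100-2, 0.03 for Vha100-3 and 0.14 for Vha100-5, and with Vha100-4 near the control level. Vha16-2, a proteolipid subunit gene, averaged 3402 in 2/v and 5512 in A2663/2, against 5427 in BL15598 and 6285 in Canton S, so that its call over both nulls (1.35-fold lower, limma adjusted p = 0.0132) goes with a low 2/v. VhaAC45, an accessory subunit gene, rose 1.23-fold (limma adjusted p = 0.0189), a call lost in 4 of 20 alternatives.

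**Figure D3:**
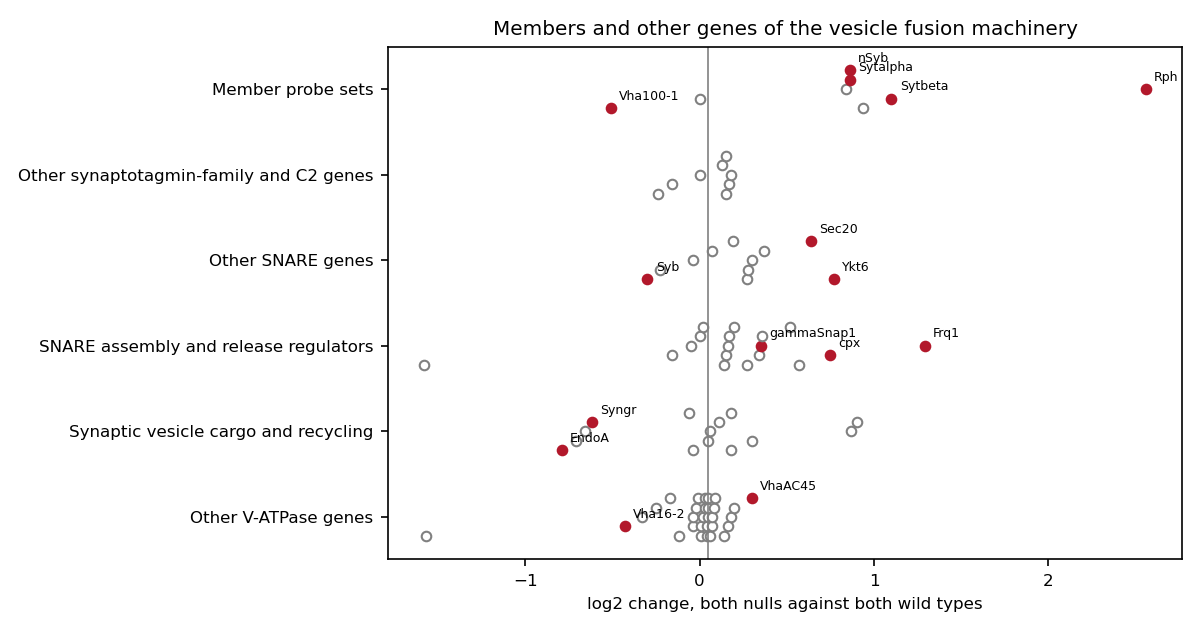
log2 change in both nulls against both wild types, with 1 point per member probe set in the top row and 1 per gene of each pathway list below it, filled and named where called, and a grey line at the median of all probe sets (0.05). Rph stands at 2.56, Frq1 is the highest filled point among the listed genes at 1.29, and most of the V-ATPase genes lie close to the grey line.

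Markers of other cells were read beside these values, again with 13.5% of all probe sets called. Of 14 neuron markers, 2 rose, 0 fell and 12 were not called, and with centring or quantile normalization ChAT and Vmat were called lower too. Their summed signal was 4422 to 5314 in 2/v and 4473 to 4987 in A2663/2, against 1990 to 2226 in BL15598 and 1729 to 2107 in Canton S. Most of that gap was nrv3, a Na,K-ATPase subunit gene, at 3474 in 2/v and 3310 in A2663/2, against 856 in BL15598 and 945 in Canton S. Without nrv3 the sums were 1207 to 1854 in 2/v and 1215 to 1478 in A2663/2, against 1098 to 1422 in BL15598 and 853 to 1131 in Canton S. These sums of the nulls overlapped those of BL15598 and lay above those of Canton S. The other called marker, Appl, was dim, at 37.6 in 2/v and 33.1 in A2663/2, against 3.83 in BL15598 and 11.1 in Canton S. elav, which defines neurons, averaged 90.4 in 2/v and 93.2 in A2663/2, against 101 in BL15598 and 81.3 in Canton S (log2 change -0.02, limma adjusted p = 0.966). Of 5 fat body markers, 3 rose and 2 were not called, with sums of 988 to 1221 in 2/v and 679 to 842 in A2663/2, against 549 to 713 in BL15598 and 443 to 565 in Canton S. Those 3, Fbp1, Fbp2 and Lsp2, were not called in A2663/2 against BL15598 (limma adjusted p = 0.282, 0.651 and 0.361). In 2/v against Canton S, Fbp2 and Lsp2 were called higher and Fbp1 was not. Of 6 muscle sheath markers 2 fell, with sums of 10145 to 11652 in 2/v and 9095 to 10223 in A2663/2, against 11709 to 15474 in BL15598 and 10052 to 11133 in Canton S. They are Tm2 and Mf, and Mf has another probe set that rose by 0.60 on the log2 scale (limma adjusted p = 0.00215). Of 7 hemocyte markers 1 rose, and their sums of 1875 to 3217 overlapped between the genotypes. Of 6 cyst and hub cell, 7 accessory gland and 5 duct and bulb markers, 0 were called by limma, with 1, 0 and 1 at an unadjusted p under 0.05. The cyst and hub sums were 5522 to 6033 in 2/v and 5875 to 6253 in A2663/2, against 6372 to 7265 in BL15598 and 4760 to 6172 in Canton S. Most of this signal was CadN. The accessory gland markers had a median log2 change of 0.71, with sums that varied widely within each genotype, at 16795 to 44820 in 2/v and 21665 to 39454 in A2663/2, against 10092 to 27989 in BL15598 and 8444 to 26027 in Canton S. The duct and bulb sums were 11365 in A2663/2 replicate 1 and 11050 in BL15598 replicate 1, and between 2014 and 3755 on the other 10 arrays, so that these 2 arrays stood apart. With either of them left out, Rph, nSyb, Sytalpha and Vha100-1 kept their calls over both nulls. Sytalpha was then no longer called in all 4 pairs, as was so for every other array left out except BL15598 replicate 2. Of 15 male germline markers, 3 rose (can, dj and mia) and 2 fell (sa and topi), and with median centring can and dj were not called. Their sums of 133936 to 191366 overlapped between all genotypes. Most of these sums came from ocn, betaTub85D, Mst98Ca, bol and Mst87F, which were not called, so they say little about the dimmer markers. The part of these cells in the changes of the members was not tested.

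The other genes whose signals ran most like a called member over the 12 arrays were picked by Pearson's r among 12426 probe sets above the control level. For Rph these were Actbeta (r = 0.986), which encodes an activin ligand, scb (0.984), an integrin alpha subunit gene, and lncRNA:dntRL (0.983). All 3 rose, with log2 changes of 2.74, 1.77 and 3.32. For nSyb they were stops (0.984), CG13675 (0.972) and the odorant receptor gene Or22b (0.971), and for Sytalpha CG5758 (0.977), CG15742 (0.958) and CG30010 (0.955). For Vha100-1 they were CG17350 (0.952), the chromatin assembly factor gene Caf1-105 (0.942) and the importin gene Kap-alpha3 (0.942). For Sytbeta 1630846_at they were the ESCRT gene Vps37B (0.968), the purine synthesis gene Pfas (0.953) and CG31016 (0.949). All of these genes except Vps37B were called over both nulls, so their r share the difference between nulls and wild types. Vps37B changed by 0.31 on the log2 scale without passing (limma adjusted p = 0.13). Between members, Rph and Sytalpha had r = 0.858 over the 12 arrays and -0.438 after each genotype's mean was taken off. Rph and nSyb had 0.873 and 0.304, and Rph and Vha100-1 had -0.879 and -0.527.

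The measured protein-coding genes next to each member, by their order in the Release 6 plus ISO1 MT assembly, were read in the same fit. Of 14 adjacent genes 5 were called, and of 28 within 2 places 6 were, beside 13.5% of all probe sets. CG6870, next to Sytalpha, averaged 3631 ± 46.2 in 2/v and 2750 ± 124 in A2663/2, against 113 ± 29.3 in BL15598 and 208 ± 114 in Canton S (SD, n = 3 each), which is 22.3-fold higher in the nulls (limma adjusted p = 1.03e-05). CG15147, on the other side of Sytalpha, changed by 0.22 on the log2 scale without passing (limma adjusted p = 0.111). CG6870, CG15147 and Sytalpha were each higher in all 6 null arrays than in any wild-type array, and so were CG13928 beside nSyb and nvd beside Snap25. The change of CG15147 was 1.16-fold. Median centring moved the median change of all probe sets from 0.05 to -0.12, so a change as small as this may depend on the scaling. In 6.41% of all probe sets the 6 null values lay outside the range of the 6 wild-type values.

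The genes on either side of Rph did not rise. Its neighbours ras, which encodes IMP dehydrogenase, and Tango5 changed by -0.30 and -0.08, with ras called (limma adjusted p = 0.0374) and that call lost in 13 of 20 alternatives. Next to nSyb, Mettl2 averaged 694 in 2/v, 537 in A2663/2 and 545 in BL15598 and 158 in Canton S, so that its call (log2 change 1.07, limma adjusted p = 0.000911) goes with a low Canton S, while for nSyb the lower wild type was BL15598. CG13928, on the other side of nSyb, changed by 0.45 without passing (limma adjusted p = 0.0555). Next to Snap25, nvd, which encodes an oxygenase of ecdysteroid synthesis, rose 3.06-fold to 227 in 2/v and 178 in A2663/2, against 87.5 in BL15598 and 49.7 in Canton S (limma adjusted p = 0.000572). Next to Syt7, NfI was called with all 4 genotypes below the control level, and 2 places away Zip102B, a zinc transporter family gene, fell 7.42-fold to 53.9 in 2/v and 64.1 in A2663/2, against 430 in BL15598 and 449 in Canton S (limma adjusted p = 4.92e-06). None of the 8 genes within 2 places of Sytbeta and Vha100-1 was called by limma, with 1, superdeath (log2 change -0.55), at an unadjusted p under 0.05.

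**Figure D4:**
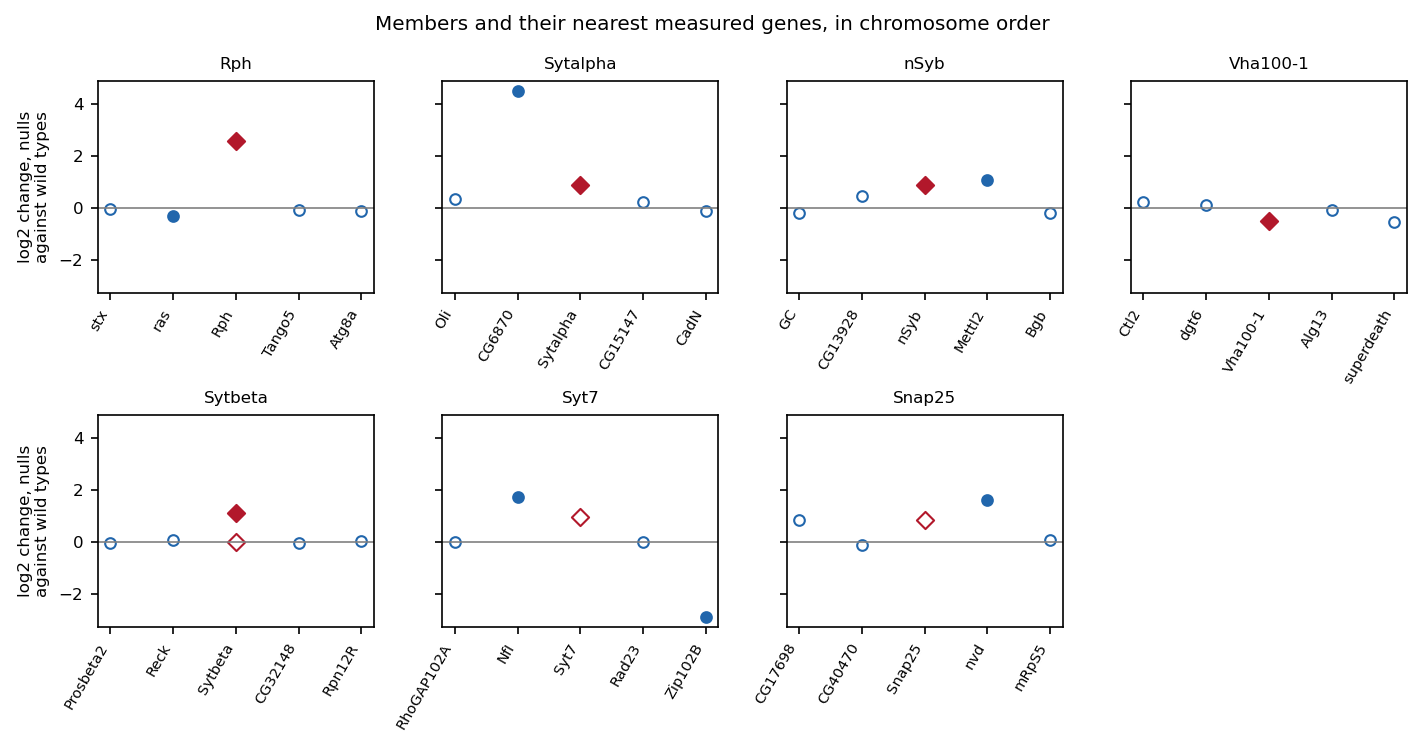
log2 change in both nulls against both wild types for each measured member (diamonds, 1 per probe set) and the measured protein-coding genes within 2 places of it in chromosome order (circles), filled where called. CG6870 stands at 4.48 beside Sytalpha at 0.86, Zip102B at -2.89 lies 2 places from Syt7, and the genes within 2 places of Rph lie between -0.30 and -0.06.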

How the data were processed

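RNA of 12 testis samples, 3 per genotype, was read on Affymetrix Drosophila Genome 2.0 arrays. The authors deposited 1 linear intensity per probe set and array. The submitters' processing notes name Partek 6.5 and RMA. Since the 12 arrays share a mean of 1500.03 once 2% of probe sets are trimmed at each end, how the authors scaled them is not settled. No offset was added before log2, and 183 control probe sets were left out.

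Probe sets were named from the platform annotation with symbols updated through RefSeq (assembly Release 6 plus ISO1 MT). Of 18769 probe sets, 13647 had 1 symbol, 402 several and 4720 none. Where a listed gene had several probe sets, the brightest stood for it. limma 3.58.1 in R 4.3.3 fitted 4 genotype means, with two-sided moderated tests. The fit was tested on simulated data. Tables and plots used pandas 2.3.3 and matplotlib 3.10.9 in Python 3.11.15. The labels call the replicates biological and name no separate crosses, so p-values measure the spread between these samples, and 3 arrays per genotype limit the precision.

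The members, lists and tests were chosen with earlier results of these data known. The rule names the members, su(Hw), up to 4 called genes per pathway list, and the 3 genes most like each called member. Marker genes, neighbours and the other genes named were chosen for their place or role, or after their values were seen. Alternatives were 2 other scalings, an offset of 16, a filter at the control level, a trended robust prior, array weights, replicate numbers as a block, fits without genotype or with only the genotypes compared, and leaving out each array. Same-numbered samples deviated together little, with 0 of 18 such pairs at a correlation of deviations over 0.1. Those correlations were -0.037 to 0.0935, against -0.1 to 0.0604 for samples with other numbers.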

Additional observations from a re-analysis of the deposited data

Results flagged for a closer look

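For 2 pathway-list genes called over both nulls, the change in 2/v against Canton S differed from that in A2663/2 against BL15598. Both were called by a test of the difference itself, as 4.07% of all probe sets were. The SNARE genes Vti1a and Snap24, not called over both nulls, also passed that test (limma adjusted p = 0.0168 and 0.0443). Vha16-2, a proteolipid subunit gene of the V-ATPase, changed by -0.88 on the log2 scale in 2/v against Canton S and by 0.03 in A2663/2 against BL15598. The difference was -0.91 with an SE of 0.183 (limma adjusted p = 0.0244). It averaged 3402 ± 304 in 2/v and 5512 ± 257 in A2663/2, against 5427 ± 564 in BL15598 and 6285 ± 799 in Canton S (SD, n = 3 each), so the 2/v arrays stood apart. Ykt6, a SNARE gene, changed by 1.67 in 2/v against Canton S and by -0.13 in A2663/2 against BL15598. The difference was 1.80 with an SE of 0.346 (limma adjusted p = 0.0195), and the Canton S arrays stood apart, at 242 ± 89.9.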

How the results depend on the processing

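The count of 5 called members over both nulls stayed within 1.5 times under all alternatives run, and Rph, nSyb, Sytalpha and Vha100-1 kept their calls in all 20. Counts for single pairs moved more. In A2663/2 against BL15598 the 3 became 5 with 16 added before log2, 6 with a trended robust prior and 5 with array weights. In A2663/2 against Canton S the 2 became 4 with array weights. In 2/v against BL15598 the 4 became 2 when only those genotypes were fitted. In BL15598 against Canton S the 0 became 1 with centring, quantile normalization, 16 added, the filter or the trended prior (Sytbeta 1630846_at each time), and 2 with array weights. With median centring the 2 called in all 4 pairs were Rph and Vha100-1, and with a trended robust prior or array weights there were 3. The count became 1, Rph, with quantile normalization and when only the compared genotypes were fitted. With the replicate number as a replicate block it was also 1, and the counts for the other comparisons stayed within 1.5 times. The labels do not say that the numbers pair the samples.

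Leaving out 1 array at a time gave 1 to 4 calls in 2/v against Canton S, 1 to 4 in A2663/2 against Canton S, 2 to 4 in 2/v against BL15598, 0 to 1 in BL15598 against Canton S and 1 to 3 in all 4 pairs. The 3 came without BL15598 replicate 3, where Vha100-1 and nSyb were called in all 4 pairs and Sytalpha was not. Sytbeta 1631457_at, at 0.00, read -0.17 with centring, -0.20 with quantile normalization and -0.09 to 0.10 with 1 array left out. The cause was not tested. The same alternatives were run on the listed genes and neighbours after their values were seen. The calls of Ykt6, Vha16-2 and Mettl2 were lost when the genotype was ignored, as were those of Syb, cpx, VhaAC45 and ras.

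Dim probe sets vary most. The median SD between replicates on the log2 scale was 1.22 in the dimmest 10% of probe sets and 0.118 in the brightest 10%, and was 1.60 for Snap25, 0.945 for Syt7, 0.581 for Sytbeta 1630846_at and 0.189 for nSyb, so small changes of Snap25 and Syt7 were not detectable here.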
